A study of Mus musculus with 135 samples.

Results

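Bulk polyA RNA of the hippocampus was compared between 6 SS + RSD mice and 7 SS mice, 13 of the 135 samples of the series. The libraries were chosen by their labels: hippocampus, sickle genotype, no minocycline, and either repeated social defeat (RSD) or no stress. All were male Townes mice, in which human globin genes replace the mouse ones and SS animals make sickle hemoglobin while AA animals make the normal human form. RSD placed an aggressive male in the home cage of an established group for part of each day on consecutive days, and the control cages had no intruder. The mice were about 6 months old at defeat, and behaviour was tested before the brain was taken. The SS and SS + RSD mice received no minocycline. 11 AA control mice, without stress or drug, served for 1 further comparison and were added to some alternative models of the main one. AA mice with RSD, minocycline or both were used to place the level of Meg3 across the hippocampus libraries. The SS libraries with minocycline entered the model and so shared in the filter on low counts, the scaling and the estimate of spread. The question of the comparison was whether defeat changes the transcriptome of the sickle hippocampus.

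The hippocampus holds the granule cells of the dentate gyrus and the pyramidal cells of the CA fields, and it serves contextual memory. Glucocorticoid receptors are abundant there, and social defeat is a widely used model of stress that acts on them, on adult neurogenesis and on microglia. Long noncoding RNAs such as Meg3, Miat and Neat1 stay largely in the nucleus, and transcripts of several splicing regulators are also held there with retained introns.

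The mice carried title numbers of different ranges, and this divided the groups before any gene was examined. All 6 SS + RSD mice (5391, 5400, 9615, 9616, 9621 and 5354) had numbers in a pair of blocks, 5349 to 5400 and 9615 to 9621 in these libraries, pooled here as number series A, as did 2 SS mice (5349 and 5353). The other 5 SS mice (9822, 9848, 9824, 9903 and 5785) had numbers outside these blocks, from 9822 to 9903 and at 5785, pooled as series B. The labels do not say what a block of numbers stands for, and the pooling is a choice of the analysis. With all defeated mice in 1 series, defeat and series cannot be told apart in the comparison with series B, and only 2 unstressed mice share the series of the defeated ones.

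The libraries differed with this division. Reads outside annotated genes made up 3.98% to 5.09% of all reads in the 6 SS + RSD libraries, 5.73% and 4.64% in SS mice 5349 and 5353, and 7.60% to 10.7% in the 5 SS mice of series B. The mean was 4.43% ± 0.436 (SD, n = 6) with RSD and 7.91% ± 2.26 (SD, n = 7) without (two-sided exact permutation test, p = 0.00524, adjusted over 4 library measures 0.021). Within series A the exact permutation p was 0.143, and the smallest p that 6 against 2 libraries allow is 0.0357. Reads on genes averaged 34.4 ± 12.4 megareads with RSD (SD, n = 6) and 53.6 ± 13.7 without (SD, n = 7; exact permutation p = 0.0286, adjusted 0.0571), from 20593970 reads in SS + RSD mouse 9616 to 68729401 in SS mouse 5353. The share of unmapped reads was above 25% in 4 libraries, 27.4% and 25.5% in SS + RSD mice 5391 and 9621 and 29.1% and 27.3% in SS mice 9822 and 9848, and between 4.11% and 14% in the other 9. These 4 libraries stood apart on the first principal component, with scores from -95.5 to -86.7 against 20.9 to 53.2, and this component held 44.6% of the variance of 20701 genes. The second component, 19.9% of the variance, held the 5 SS mice of series B at 28.8 to 70.1 and the 8 mice of series A at -50.7 to -11.9, with the unstressed 5349 and 5353 at -14.8 and -20.5.

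**Figure D1:**
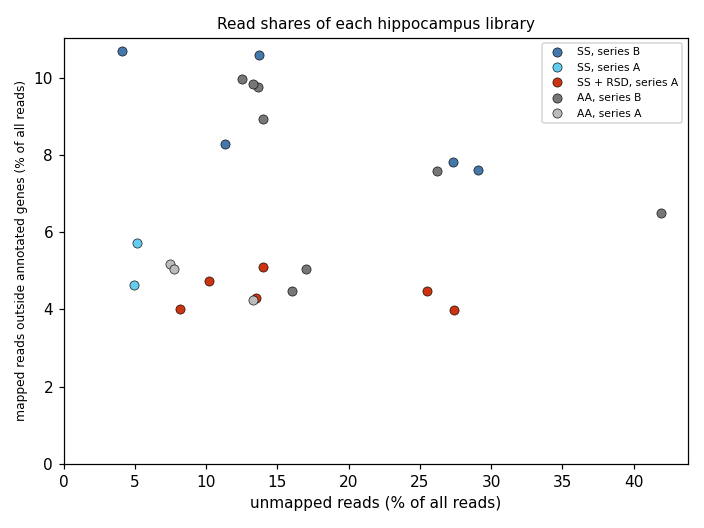
Each point is 1 hippocampus library of the SS, SS + RSD or AA control mice. The x axis is the share of reads that did not map and the y axis the share that mapped outside annotated genes, both in percent of all reads. The 6 SS + RSD libraries lie between 3.98% and 5.09% on the y axis, with the series A controls at 4.25% to 5.73%, and the 5 SS libraries of series B lie at 7.60% or above. AA mice 9836 and 5844 of series B lie at 4.47% and 5.05%.

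Labels and tissue were checked on marker genes in the same 13 libraries. Prox1, the granule cell transcription factor, was at 75.1 to 151 CPM, a gene's reads relative to library size, in the hippocampus and at 10.9 to 18.7 in the cortex of the same mice, while Tbr1, a cortical projection neuron factor, was at 27.5 to 58.5 and 74.8 to 150. The 74.8 was in the cortex of SS + RSD mouse 9621, and the other mice were at 100 to 150. That cortex library was also lowest for Dkk3, at 181 CPM against 419 to 642, and highest for Gad1, at 613 against 302 to 402. Every library had Y-linked Ddx3y at 30.5 CPM or more and Xist at 0.889 CPM or less. The mouse adult beta-globin gene Hbb-bs had 0 to 7 reads per library, and erythroid Alas2, the first enzyme of heme synthesis in red cell precursors, was at 44.8 to 128 CPM. Hippocampus levels are CPM after scaling by the trimmed mean of M values (TMM) throughout. The cortex levels of Prox1 and Tbr1 were scaled by the reads on genes alone, without TMM.

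In edgeR's quasi-likelihood test, 643 of 20701 genes differed between SS + RSD and SS mice at an adjusted p under 0.05 (3.11%). Of these 623 were lower with RSD (3.01% of those tested) and 20 were higher (0.0966%). On the log2 scale the change of the lower genes was -1.0 at the median and ranged from -5.84 to -0.21, and that of the higher ones 0.30 at the median with a range of 0.23 to 1.01, against 0.06 over all genes tested. The adjusted p-values of all 643 lay between 0.038 and 0.0499, close to the threshold, and 4050 genes had an unadjusted p under 0.05 (19.6%), 2905 lower (14%) and 1145 higher (5.53%). Leaving out 1 library ended every call for 10 of the 13 libraries: SS mice 9822, 9848, 9824, 9903 and 5785, and SS + RSD mice 5391, 9615, 9616, 9621 and 5354. Between 3234 and 4046 genes then had an unadjusted p under 0.05. Without SS + RSD mouse 5400 there were 903 calls, and without the SS mice of series A there were 1255 (5349) and 1550 (5353).

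The defeated mice lay near the unstressed mice of their own series for most of these genes. For 620 of the 623 lower genes and 15 of the 20 higher ones, the SS + RSD mean of log2 CPM was nearer to the series A controls than to the series B controls, as for 12631 of all 20701 genes (61%). These genes were called against a group in which 5 of 7 mice were of series B, which favours that outcome. The series A controls lay between the SS + RSD and series B means for 608 of the lower genes (97.6%) and 15 of the higher ones (75%). Over all genes this share was 31.2%. The 2 series A controls were also in the SS group used for the calls. Against the 2 series A controls alone, the median of the 572 lower genes tested was -0.29 and that of the 20 higher ones 0.22. Of the 572, 559 stayed below 0, and 53 had an unadjusted p under 0.05 (9.27%, against 5.15% of all). No gene passed edgeR there (0 calls), while 984 had an unadjusted p under 0.05. With number series as a term, or with the AA control libraries added and genotype and series as terms, edgeR also called 0 genes, and 1328 and 1954 genes had an unadjusted p under 0.05. In the model with AA controls, 611 of the 617 lower genes tested stayed below 0. Of these 617, 189 had an unadjusted p under 0.05 (30.6%, against 9.98% of all). The groups did not overlap for 88 of the 623 lower and 7 of the 20 higher genes, against 203 of all 20701 tested (0.981%). All of these shares come from genes called on the same SS + RSD and SS libraries. That choice by itself favours kept signs, low p-values and groups apart, so the shares are no independent evidence.

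The AA control mice gave a measure of the series without any defeated animal or any library of the comparison above. 3 AA mice of series A were set against 8 of series B, and 3335 of 18554 genes differed (18%), 1293 lower (6.97%) and 2042 higher (11%) in series A. Of the 615 genes lower in SS + RSD mice and tested in both, 610 had a lower mean in the AA mice of series A (99.2%, against 50.7% of all genes tested), and 154 were called lower there. These 154 were 25% of the 615 and 11.9% of the 1293. All 20 genes higher with RSD had a higher mean in the AA mice of series A, and 2 were called, Chrm3 and Atf6. The 2042 and 1293 rest on few mice: without AA mouse 9631 edgeR called 0 genes, and without 9644 it called 2.

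**Figure D2:**
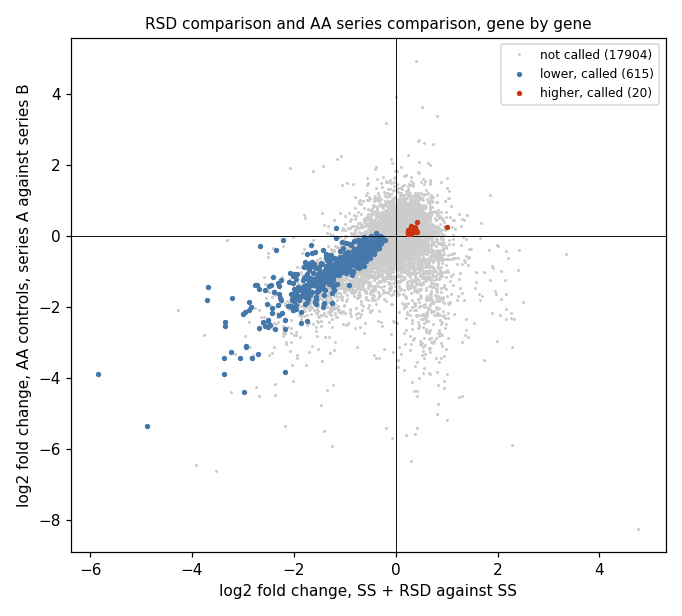
Each point is 1 gene tested in both comparisons. The x axis is the log2 fold change of SS + RSD against SS mice and the y axis that of AA control mice of series A against series B, which share no library with the x axis. Genes lower with RSD (615) lie almost wholly in the lower left and genes higher with RSD (20) in the upper right.

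Nuclear-retained RNAs and splicing regulators were the list with the most calls: 15 of 30 members fell with RSD and 0 rose, against 3.01% lower among all genes. The median of the 30 was -0.61. The 15 included the long noncoding RNAs Snhg11, Miat, Meg3, Kcnq1ot1, Mirg and Neat1 and the protein-coding Rsrp1, Pnisr, Ccnl2, Clk4, Clk1, Luc7l3, Srsf5 and Cirbp, with log2 fold changes from -2.11 for Miat to -0.40 for Cirbp. The summed level of the list was 4760 to 7140 CPM in SS + RSD mice, 5650 and 7910 in the SS mice of series A, and 13200 to 17700 in those of series B. The share of reads outside genes moved with it, and its part in the result was not tested beyond the model with that share as a term, which called 0 of the 30. Against the 2 series A controls the median of the list was -0.16, and in AA mice of series A against series B it was -0.60. In the AA mice 18 of 30 were called lower, against 6.97% of all genes.

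The promoters of the 3 members with the largest change are shown because these transcripts moved together across the libraries. Each run is 300 bases 5′ to 3′ on the gene's strand, 250 before and 50 after the annotated start, from RefSeq on GRCm38.p6, and capitals mark the letters of a searched motif on either strand. The Miat window is chr5:112228899-112229198 (minus strand), that of Meg3 chr12:109540746-109541045 (plus strand, the upstream of 2 listed starts) and that of Snhg11 chr2:158375463-158375762 (plus strand).
Miat: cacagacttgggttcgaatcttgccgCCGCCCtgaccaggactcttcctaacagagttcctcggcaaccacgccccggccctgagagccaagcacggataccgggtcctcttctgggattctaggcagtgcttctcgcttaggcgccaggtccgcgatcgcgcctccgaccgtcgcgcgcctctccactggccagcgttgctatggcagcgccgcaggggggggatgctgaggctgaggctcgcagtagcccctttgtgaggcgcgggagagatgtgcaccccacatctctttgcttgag
Meg3: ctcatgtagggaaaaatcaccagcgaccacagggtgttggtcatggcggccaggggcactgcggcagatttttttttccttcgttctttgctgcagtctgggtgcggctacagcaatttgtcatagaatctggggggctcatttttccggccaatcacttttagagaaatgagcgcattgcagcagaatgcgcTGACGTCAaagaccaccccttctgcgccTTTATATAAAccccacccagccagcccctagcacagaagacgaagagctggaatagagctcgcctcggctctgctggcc
Snhg11: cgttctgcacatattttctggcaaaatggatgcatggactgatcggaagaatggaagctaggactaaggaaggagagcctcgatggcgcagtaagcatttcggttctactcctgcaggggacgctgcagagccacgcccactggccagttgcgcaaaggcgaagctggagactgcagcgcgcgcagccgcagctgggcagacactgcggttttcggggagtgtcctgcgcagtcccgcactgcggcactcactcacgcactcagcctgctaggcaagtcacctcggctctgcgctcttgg
The motifs searched were the cAMP response element TGACGTCA, its shorter form TGACGT, which it contains, the GC box GGGCGG, the TATA box TATAAA and the E-box CACGTG. Meg3 holds 1 TGACGTCA, which 1.79% of 32851 promoters hold, and TATAAA on both strands in overlapping letters, which 13.6% hold. Miat holds 1 GGGCGG, on the opposite strand, which 35.7% hold, and Snhg11 holds none of the 5. The shares for TGACGT and CACGTG were 7.51% and 7.15%.

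Meg3, a maternally expressed imprinted long noncoding RNA of the Dlk1-Dio3 region, lies on the plus strand at chr12:109506877-109538165 (GRCm39). It was at 809, 1260, 575, 1180, 1600 and 753 CPM in SS + RSD mice 5391, 5400, 9615, 9616, 9621 and 5354. In SS mice it was at 5210, 4760, 6760, 4090 and 6380 CPM in 9822, 9848, 9824, 9903 and 5785 and at 1780 and 905 in 5349 and 5353. Of the SS mice only 5353 lay within the range of the defeated mice, and 5349 lay above it but below every series B control. The log2 fold change was -2.01 ± 0.57 (SE, edgeR adjusted p = 0.0466), -0.38 ± 0.37 against series A controls alone, and -2.07 ± 0.53 in AA mice of series A against series B (adjusted p = 0.0255).

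Miat, another nuclear long noncoding RNA of neurons (chr5:112361094-112377261, minus strand), ran from 89.1 to 272 CPM with RSD, was 324 and 148 in SS mice 5349 and 5353, and ran from 730 to 1100 in SS mice of series B. Its log2 fold change was -2.11 ± 0.55 (edgeR adjusted p = 0.0439) and -0.51 ± 0.40 within series A. Another annotated gene on the opposite strand covers 32.6% of its exonic bases, and the strand setting of the counting is not given in the sources used here. Snhg11, a small nucleolar RNA host gene of neurons (chr2:158217558-158228071, plus strand), was 244 to 774 CPM with RSD, 686 and 462 in the series A controls, and 2080 to 2940 in the series B controls, with a log2 fold change of -2.0 ± 0.54 (adjusted p = 0.044). For all 3 RNAs the division lay between series B controls and all other mice. It was the same in the cortex of these mice, where Meg3 was 778 to 2070 CPM with RSD, 2030 and 945 in 5349 and 5353, and 5770 to 7150 in the series B controls.

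The rest of the hippocampus libraries placed these levels. In the 27 of 64 libraries with under 6% of reads outside genes, a division chosen after the values were seen, Meg3 ran from 575 to 1780 CPM with a median of 982. In the other 37 it ran from 882 to 8090 with a median of 5380. The 27 held all 6 SS + RSD, 2 of 7 SS, all 3 AA + RSD and 5 of 11 AA libraries, among them AA mice 9836 and 5844 of series B, where Meg3 was at 859 and 1580 CPM and the share outside genes was 4.47% and 5.05%. Defeated mice given minocycline were found on both sides, 4 SS + RSD + minocycline libraries among the 27 and 10 among the 37.

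**Figure D3:**
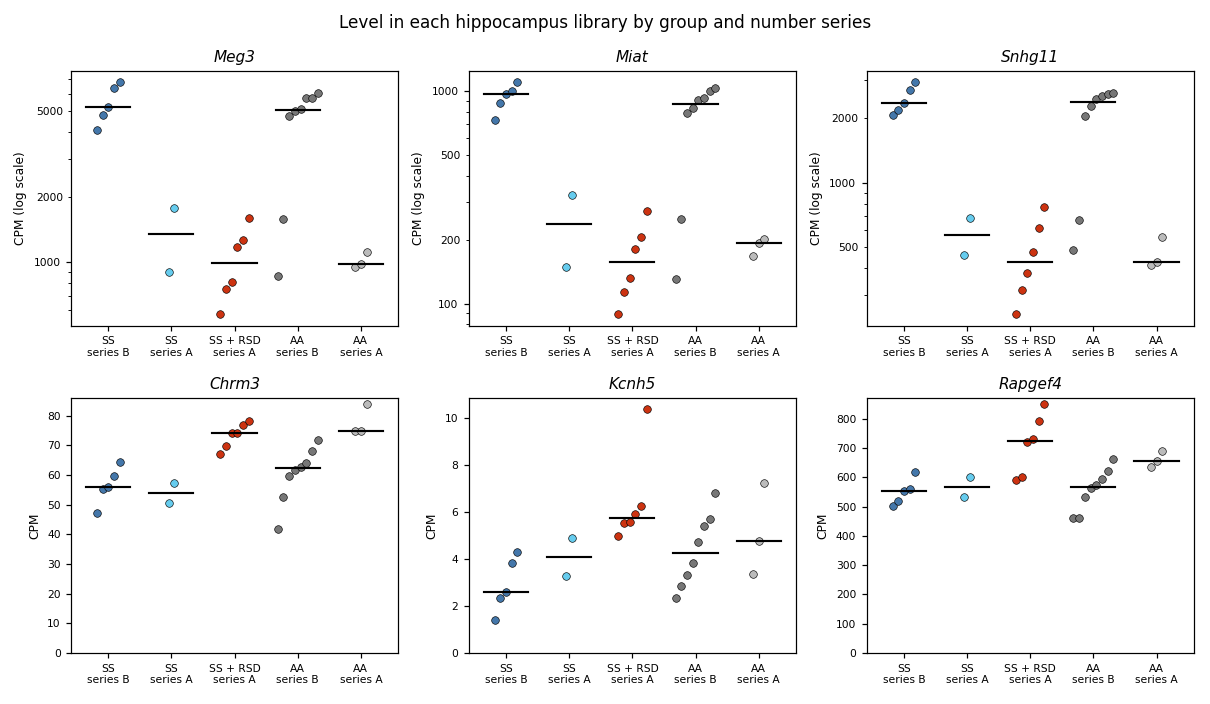
Levels of 6 genes in CPM, each point 1 hippocampus library and each bar the median, by group and number series. The y axis is logarithmic for Meg3, Miat and Snhg11 and starts at 0 for Chrm3, Kcnh5 and Rapgef4. SS + RSD mice share the low levels of Meg3, Miat and Snhg11 with series A controls, while Chrm3 lies above both sets of SS controls.

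Within the list, Neat1, the scaffold RNA of paraspeckles, Srsf5, a serine- and arginine-rich splicing factor, and Cirbp, the cold-inducible RNA-binding protein, were the 3 members whose groups did not overlap (0.773% of all genes were so on the lower side). Neat1 was at 65.8, 56.4, 64.6, 70.6, 38.6 and 42 CPM in the 6 defeated mice in the order above, at 96.3 and 75.8 in the series A controls and at 122 to 171 in the series B controls. Every defeated mouse was below every SS mouse, series A included. The log2 fold change of Neat1 was -1.19 ± 0.29 (edgeR adjusted p = 0.0419), -0.60 ± 0.23 within series A (unadjusted p = 0.0252, adjusted 0.72) and -0.84 ± 0.36 in the AA series comparison (adjusted p = 0.114). Srsf5 had 180 to 236 CPM with RSD and 241 to 356 without, with 276 and 241 in series A (log2 fold change -0.49 ± 0.11, adjusted p = 0.038). Cirbp had 54 to 63.3 CPM with RSD and 65.9 to 98.3 without, with 65.9 and 71.5 in series A (log2 fold change -0.40 ± 0.10, adjusted p = 0.043). Genes on the opposite strand cover 28.8% of the exonic bases of Srsf5 and 32.5% of Cirbp, so reads of both are uncertain.

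Other members of the list that fell were kinases and cofactors of splicing and further noncoding RNAs. Clk1 and Clk4, kinases that phosphorylate SR proteins, had log2 fold changes of -0.62 ± 0.17 and -0.70 ± 0.18, and Ccnl2, a cyclin tied to splicing, -0.80 ± 0.22. Rsrp1 and Pnisr, arginine- and serine-rich proteins, changed by -0.97 ± 0.22 and -0.92 ± 0.25, and Luc7l3, a U1 snRNP-associated protein, by -0.60 ± 0.14. Kcnq1ot1, the imprinted antisense RNA of Kcnq1, and Mirg, from the same imprinted region as Meg3, changed by -1.57 ± 0.45 and -1.47 ± 0.41. Within series A these 8 estimates were nearer to 0, from -0.03 for Kcnq1ot1 to -0.48 for Mirg.

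Noncoding genes were also frequent among all 623 lower genes. By GENCODE biotype 18.4% of the 615 with an annotation were long noncoding, against 10.9% of all genes tested, and 69.3% were protein-coding, against 75.4%. The exonic length had a median of 5.04 kb against 5.0 kb, and the GC content of the longest transcript 51.2% against 49.1%. All 20 higher genes were protein-coding, with a median length of 8.84 kb and a GC content of 47.4%.

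The 12 named genes with the largest falls included Muc3a, Col7a1, Col11a1 and Tnfrsf25. Muc3a, a mucin gene, was at 0.413 to 3.05 CPM with RSD, at 1.35 and 0.874 in the series A controls and at 9.90 to 25.5 in the series B controls (log2 fold change -3.21 ± 0.78, adjusted p = 0.041). Col7a1, the anchoring fibril collagen, was at 0.445 to 1.75, 3.04 and 1.30, and 6.31 to 8.36 CPM in the same order (-2.40 ± 0.59, adjusted p = 0.041), and Col11a1, a fibrillar collagen, at 5.28 to 19.2, 13.2 and 5.10, and 57.6 to 92 (-2.07 ± 0.57, adjusted p = 0.0447). Within series A, Col7a1 kept its sign at -1.01 ± 0.49 whereas Muc3a and Col11a1 changed sign to 0.53 ± 0.65 and 0.44 ± 0.55. Tnfrsf25, a death receptor of the tumour necrosis factor family, changed by -2.02 ± 0.56 (adjusted p = 0.0456), with 2.52 to 11 CPM in defeated mice and 10.7 and 5.49 in the series A controls, and opposite-strand genes cover 17.1% of its exonic bases.

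The remaining 5 of the 12, beside Miat, Meg3 and Snhg11, were noncoding or little described genes. Prox2os and Zfhx2os, transcripts antisense to Prox2 and Zfhx2, changed by -2.18 ± 0.59 and -1.98 ± 0.55, and AI480526, a long noncoding RNA, by -1.88 ± 0.50. Genes on the opposite strand cover 31%, 30.6% and 86.2% of their exonic bases, so their reads are uncertain. Mir5125, a microRNA hairpin whose reads in a polyA library are of a longer transcript, changed by -2.01 ± 0.54, and Leng8, a gene linked to mRNA export, by -1.94 ± 0.50. Leng8 was at 69.1 to 137 CPM with RSD, 188 and 101 in the series A controls and 387 to 634 in series B.

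Of the 20 genes that rose, the 12 with the largest change are described. Chrm3, the muscarinic acetylcholine receptor M3 (chr13:9925522-10410883, minus strand), was at 78, 69.7, 74, 76.8, 67.2 and 74 CPM in SS + RSD mice 5391, 5400, 9615, 9616, 9621 and 5354. It was at 59.5, 47.3, 55.3, 56 and 64.4 CPM in SS mice 9822, 9848, 9824, 9903 and 5785 and at 50.6 and 57.3 in 5349 and 5353. All 6 defeated mice were above all 7 SS mice, and the 2 sets of SS controls overlapped. The log2 fold change was 0.42 ± 0.09 (edgeR adjusted p = 0.038), 0.45 ± 0.10 within series A (unadjusted p = 0.00135, adjusted 0.72) and 0.22 ± 0.12 with AA controls added and series as a term (adjusted p = 0.509). Chrm3 was also higher in AA mice of series A than of series B, by 0.39 ± 0.13 (adjusted p = 0.0487). In the cortex it was at 43.3 CPM in SS + RSD mouse 9621 and at 69 to 93.7 in the other defeated mice. The SS mice had 69.7 to 93.3 there.

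Kcnh5, a voltage-gated potassium channel of the EAG family (chr12:74942354-75224151, minus strand), had the largest rise of the called genes, a log2 fold change of 1.01 ± 0.27 (adjusted p = 0.0439). It was at 5.54, 5.90, 4.99, 6.27, 5.56 and 10.4 CPM in the defeated mice in the order above, at 4.89 and 3.26 in the series A controls and at 1.39 to 4.31 in the series B controls. The groups did not overlap, and SS mouse 5349 at 4.89 came closest to the lowest defeated mouse, 9615 at 4.99. Within series A the log2 difference was 0.67 ± 0.30 (edgeR unadjusted p = 0.0549, adjusted 0.72).

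Rapgef4, which encodes the cAMP-activated exchange factor Epac2, was at 589 to 851 CPM with RSD, 602 and 531 in the series A controls and 501 to 618 in the series B controls (log2 fold change 0.38 ± 0.10, adjusted p = 0.044). Pcsk2, the prohormone convertase of dense-core vesicles, was at 321 to 414 CPM with RSD and 260 to 316 without, with no overlap (0.32 ± 0.08, adjusted p = 0.043). Exoc4, a subunit of the exocyst, and Ctnna2, the neuronal alpha-catenin, were also without overlap, at 91.4 to 111 against 58 to 87.6 CPM and at 119 to 140 against 95.5 to 116 CPM. Their log2 fold changes were 0.39 ± 0.09 and 0.31 ± 0.09. Exoc4 was at 87.6 CPM in both series A controls and at 58 to 82.9 in the series B controls.

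The other named genes that rose are given by their estimates. Atf6, a transcription factor of the unfolded protein response, changed by 0.31 ± 0.08, Tgoln1, a membrane protein of the trans-Golgi network, by 0.35 ± 0.10, and Gpr89, a Golgi pH regulator, by 0.37 ± 0.10. Scarb2, the lysosomal receptor for beta-glucocerebrosidase, changed by 0.30 ± 0.08, Pcyt1a, which controls phosphatidylcholine synthesis, by 0.29 ± 0.07, and Zfp106, an RNA-binding zinc finger protein, by 0.42 ± 0.12. Genes on the opposite strand cover 34.2% of the exonic bases of Tgoln1, 24.7% of Gpr89, 17.7% of Pcyt1a and 17.2% of Zfp106. Within series A the 12 named rising genes had estimates from 0.15 to 0.67, all above 0, and the lowest adjusted p of any gene in that comparison was 0.0932. These genes were called on the same defeated mice and controls, which favours that sign.

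3 further lists had called members, all lower. Of 7 sirtuins, 2 fell: Sirt4, a mitochondrial member, by 1.14 ± 0.30 and Sirt7, a nucleolar member, by 0.69 ± 0.19 on the log2 scale. Sirt4 was at 6.28 to 14.5 CPM with RSD, 15.2 and 10.6 in the series A controls and 21 to 32.1 in series B. Sirt7 averaged 26.1 CPM with RSD, 31.3 in the series A controls and 47.7 in series B. Within series A its estimate was -0.26 ± 0.17. The median of the sirtuins was -0.285, with -0.222 within series A and -0.328 in AA mice of series A against B. Of 24 meningeal fibroblast and collagen genes, 2 fell: Col6a1, by 1.74 ± 0.48, and Col4a2, a basement membrane collagen, by 1.0 ± 0.28. Means of Col6a1 were 14.4 CPM with RSD and 22.4 and 59.9 in the series A and B controls. Those of Col4a2 were 51, 61.2 and 122. Within series A the estimates were -0.64 ± 0.47 and -0.26 ± 0.19. The median of this list was -0.249, with -0.385 within series A and -0.232 in AA mice of series A against B. Of 30 cholesterol genes 1 fell, Tm7sf2, a sterol reductase, by 0.63 ± 0.17, with a median of 0.15 for the list and -0.08 within series A. Counts of 2 of 7, 2 of 24 and 1 of 30 stand against 3.01% of all genes. In bulk tissue fewer cells of a type and less RNA per cell cannot be told apart.

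The other 28 lists had 0 called members in the edgeR test. Glucocorticoid-responsive genes and receptors, the list nearest to the stress hormone response, had a median of 0.11 over 26 members and 0.12 within series A. At an unadjusted p under 0.05, 3 were higher and 1 lower, against 5.53% and 14% of all genes. Klf9, a glucocorticoid-induced factor, was at 202 ± 17.6 CPM with RSD (SD, n = 6) and 195 ± 25.1 without (SD, n = 7), with 149 and 176 in the series A controls and a log2 difference within series A of 0.32 ± 0.12 (edgeR unadjusted p = 0.0203, adjusted 0.72). Nr3c2, the mineralocorticoid receptor, was at 176 ± 26 and 163 ± 17.8. Neuronal immediate early genes had a median of 0.20 over 30 members and -0.0015 within series A. Of these 5 were higher at an unadjusted p under 0.05, against 5.53% of all genes. Plk2, an activity-induced kinase, was at 241 ± 33.3 and 201 ± 28.6 CPM (log2 fold change 0.29 ± 0.12, edgeR adjusted p = 0.152). Neurogenesis and proliferation genes had a median of 0.14 over 30, -0.12 within series A and 0.32 in AA mice of series A against B. Tubb3, the neuronal beta-tubulin, was at 268 ± 40.4 and 226 ± 39.7 CPM, with 252 and 297 in the series A controls.

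No neuronal marker was called. Over 20 dentate granule cell markers the median was 0.10, and 0.15 within series A. Sema5a, a semaphorin, was at 152 ± 28.4 CPM with RSD and 132 ± 27.5 without, and its log2 difference within series A was 0.49 ± 0.19 (edgeR unadjusted p = 0.0299, adjusted 0.72). Over 24 CA field markers it was 0.21, and 0.12 within series A, and Dkk3, a secreted protein of pyramidal cells, changed by 0.23 ± 0.08 (adjusted p = 0.0809). Over 24 interneuron markers it was 0.22, and 0.08 within series A, with Gad1, the GABA-synthesizing enzyme, at 350 ± 17.6 and 307 ± 31.9 CPM. Glutamate receptors and scaffolds had a median of 0.10 over 40 and 0.20 within series A, with Camk2a at 6019 ± 907 and 5319 ± 691 CPM. Mgll, which degrades the endocannabinoid 2-arachidonoylglycerol, changed by 0.28 ± 0.10 (adjusted p = 0.0874), and by 0.43 ± 0.11 in AA mice of series A (adjusted p = 0.0247).

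Glial lists had positive medians that moved with the number series. Homeostatic microglia genes had a median of 0.33 over 26 members, with 8 higher at an unadjusted p under 0.05, against 5.53% of all genes. Their median was 0.00 within series A and 0.50 in AA mice of series A against B. In the AA mice 12 of 26 were called higher, against 11% of all genes. Csf1r, the microglial growth factor receptor, was at 135 to 179 CPM with RSD, 147 and 135 in the series A controls and 93.9 to 121 in series B. Oligodendrocyte and myelin genes had a median of 0.35 over 28 and -0.17 within series A, and Mbp, myelin basic protein, was at 2230 to 5050, 4040 and 3700, and 1750 to 1980 CPM in the same order. Astrocyte identity genes had a median of 0.22 over 22 and -0.02 within series A, with Slc1a2, the glutamate transporter GLT-1, at 3283 ± 695 and 2739 ± 277 CPM. Ribosomal protein genes had a median of 0.37 over 81 and -0.19 within series A, with 69 of 80 called higher in AA mice of series A, against that 11%.

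Further lists without calls are given by their medians. Heat shock and chaperone genes had a median of 0.25 over 34 and -0.01 within series A. In AA mice of series A 19 of these were called higher, as were 11% of all genes. Nuclear complex I genes had 0.28 over 36 and -0.21 within series A, with 29 called higher there, and proteasome subunits 0.23 over 39 and -0.09, with 27 called higher. Mitochondrially encoded genes had a median of 0.30 over 24 and 0.21 within series A, and circadian clock genes 0.03 over 22 and 0.01. Blood-brain barrier and endothelial genes had a median of 0.12 over 32, -0.10 within series A and 0.07 in AA mice of series A against B, and pericyte and smooth muscle genes -0.08 over 18, -0.30 and 0.25 in the same order. The medians of 28 heme and iron handling genes were 0.09, -0.07 and 0.14, those of 25 reactive microglia genes 0.18, -0.18 and 0.39, and those of 26 reactive astrocyte genes 0.22, -0.05 and 0.21, and these 3 lists changed sign within series A.

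**Figure D4:**
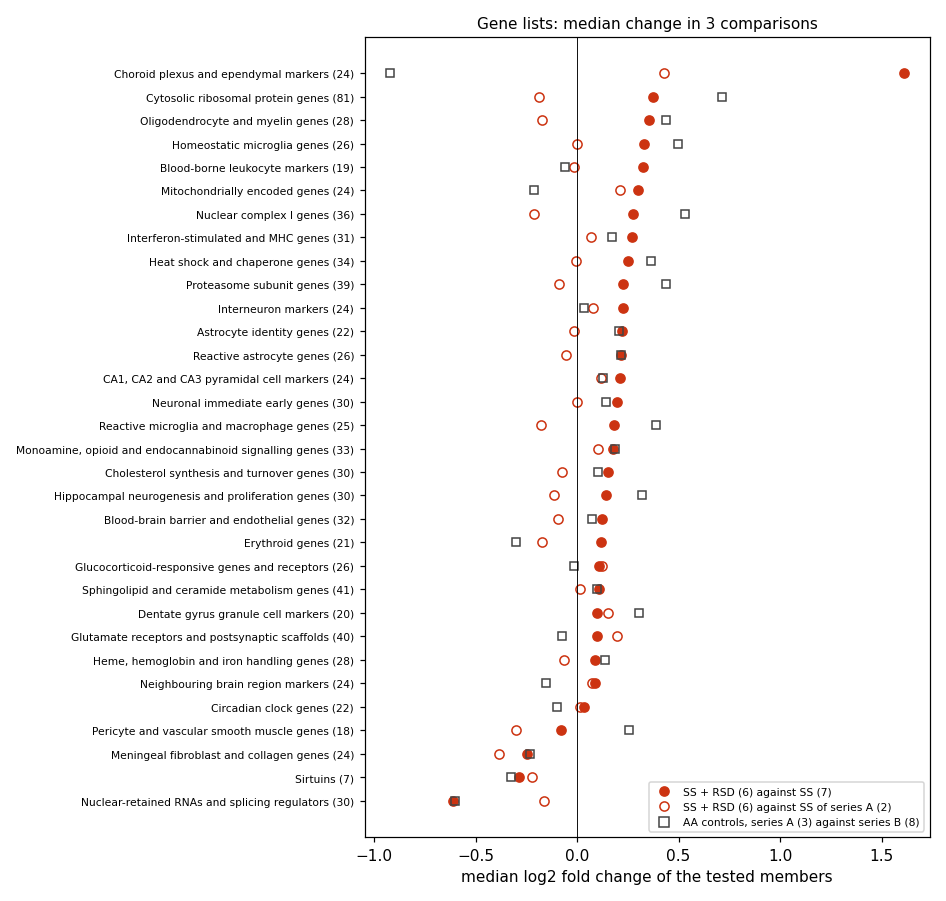
Median log2 fold change of the tested members of 32 gene lists, with the number tested in brackets. Filled circles are SS + RSD (6) against SS (7), open circles SS + RSD against the 2 SS mice of series A, and squares AA controls of series A (3) against series B (8). Nuclear-retained RNAs and splicing regulators lie lowest among the filled circles, at -0.61, and choroid plexus markers highest, at 1.61.

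Interferon-stimulated and MHC genes stood highest in 1 defeated mouse. Their summed level was 1370 CPM in SS + RSD mouse 9615 and 262 to 361 in the other 5, against 249 to 435 in SS mice. H2-D1, a class I heavy chain, was at 230 CPM in 9615 and 38.0 to 48.8 in the other 5 defeated mice, and B2m, its light chain, at 257 and 43.3 to 73.5. The log2 fold changes were 0.77 ± 0.37 and 0.84 ± 0.36 (adjusted p = 0.24 and 0.181), and without 9615 they were -0.08 and 0.18. The cortex of the same mouse was also high, with H2-D1 at 141 CPM and B2m at 156, against 33.4 to 61.3 and 36.8 to 82.2 in the other 12 mice.

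Choroid plexus and ependymal markers, which mark ventricle tissue beside the hippocampus, varied widely between libraries. Their summed level was 12700 and 4300 CPM in SS + RSD mice 9615 and 9616 and 226 to 354 in the other 4, and 3480 and 679 in SS mice 5349 and 5353 against 207 to 420 in the other 5. The list median of 1.61 over 24 members was the highest of all lists, and it was 0.43 within series A. Of the members 0 were called and 7 were higher at an unadjusted p under 0.05, against 5.53% of all genes. Ttr, transthyretin, was at 9010 and 2810 CPM in the 2 defeated mice, 2290 in SS mouse 5349 and 5.04 to 234 in the remaining 10. Enpp2, autotaxin, was at 2740 and 1090 CPM there and 119 to 246 in the other defeated mice. Leukocyte markers summed to 20.2 to 52.2 CPM with RSD, highest again in 9615, and 18.2 to 44 without, and erythroid genes to 925 to 1120 and 774 to 1040.

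**Figure D5:**
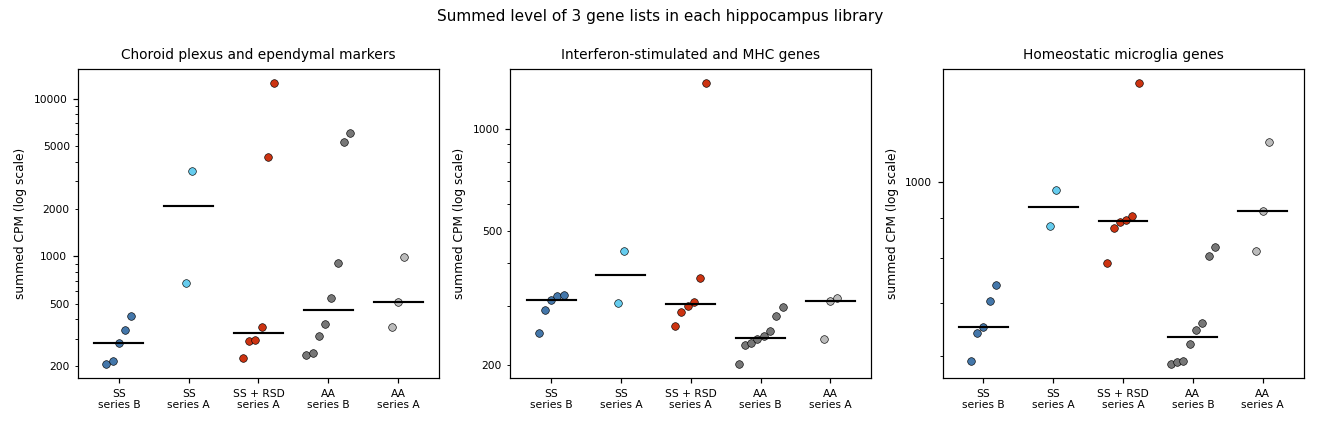
Summed CPM of 3 gene lists in each hippocampus library, on logarithmic axes, by group and number series, with the median as a bar. SS + RSD mouse 9615 is the highest point in all 3 panels, at 12700, 1370 and 1340 CPM.

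The 10 genes that the study had named in its hippocampus results were measured here. Csf1r and the sirtuins, which it named for the cortex, are given above. None of the 10 passed the test, and since the study chose them on samples of this series they are no independent evidence of a direction. The study named them for other contrasts, Maob between the genotypes after defeat and the other 9 for minocycline in defeated SS mice, and those contrasts were not tested here. Cx3cr1, the microglial fractalkine receptor, was at 65.7 to 79.5 CPM with RSD and 49.2 to 63.7 without, the only one of the 10 without overlap (0.34 ± 0.11, adjusted p = 0.0762). Its mean was 61 CPM in the series A controls and 53.4 in series B. Its estimate was 0.19 ± 0.10 within series A and 0.26 ± 0.12 in AA mice of series A against B. St3gal2 and St3gal3, sialyltransferases of gangliosides and glycoproteins, had 0.27 ± 0.09 and 0.26 ± 0.10 (adjusted p = 0.0678 and 0.132). Within series A they had 0.12 ± 0.11 and 0.05 ± 0.12. St3gal3 was called higher in AA mice of series A, by 0.29 ± 0.07 (edgeR adjusted p = 0.0198). Maob, which oxidizes monoamines, was at 32 ± 7.85 and 24.4 ± 5.62 CPM, with 33.1 and 31 in the series A controls. Smpd1, acid sphingomyelinase, had 0.29 ± 0.14 and was at 111 to 133 CPM with RSD, 127 and 140 in the series A controls and 85.7 to 97.5 in series B.

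Ormdl2 and Ormdl3, regulators of sphingolipid synthesis, had 0.59 ± 0.27 and 0.24 ± 0.14 (adjusted p = 0.216 and 0.374), and reads of Ormdl2 are uncertain because other genes cover 59.4% of its exonic bases on the opposite strand. Plpp3, a lipid phosphate phosphatase, had 0.19 ± 0.08, Cd38, an NAD-consuming ectoenzyme, 0.38 ± 0.17, and Tlr2, a pattern recognition receptor, 0.79 ± 0.31 (adjusted p = 0.168, 0.204 and 0.145). Tlr2 was at 5.59 CPM in SS + RSD mouse 9615 and at 1.23 to 2.40 in the other 5. The 41 sphingolipid genes had a median of 0.11 and 0.01 within series A, with 0 called. At an unadjusted p under 0.05, 8 were higher and 4 lower, against 5.53% and 14% of all genes.

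Whether defeat acted differently in the hippocampus and the cortex was tested on both tissues of the same 13 mice, with mouse as a block. Of 19516 genes 1 differed (0.00512%), the pseudogene Gm13532, which was named after its values were seen, with a log2 difference of -5.96 ± 0.76 (edgeR adjusted p = 0.0171), and 1124 had an unadjusted p under 0.05 (5.76%). DESeq2 called 5. edgeR called 0 with tissue by number series as a further term and 0 without mouse as a block, with 548 and 391 genes at an unadjusted p under 0.05. Gm13532 had 260 and 133 reads in the hippocampus and 312 and 201 in the cortex of SS + RSD mice 5391 and 9621. It had 93 and 214 in the hippocampus but 0 and 1 in the cortex of SS mice 9822 and 9848, and 0 to 7 in every other library. The 6 libraries with these reads were those with 24.1% or more unmapped reads, and all others had 15.3% or less. The part of that share in the call was not tested. Meg3, Miat and Snhg11 had tissue differences of -0.14, -0.05 and -0.11, and Chrm3 and Kcnh5 of 0.61 and 0.92 (adjusted p = 0.425 and 0.518). For Chrm3 the cortex of SS + RSD mouse 9621 was the lowest, at 43.3 CPM, and its part in that difference was not tested.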

How the data were processed

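The authors aligned single reads of directional polyA libraries to GRCm39 with STAR and took read counts per GENCODE gene, which are the deposited values. The GENCODE release and strand setting are not given in the sources used here. Read summary rows were kept out of library sizes. Groups came from the labels, 2 identical hippocampus libraries were left out, and 2 hippocampus and 1 cortex columns were not used. Genes passed filterByExpr and were tested with edgeR 4.0.16 (quasi-likelihood, TMM, Benjamini-Hochberg threshold 0.05) under R 4.3.3, with all 31 SS hippocampus libraries in 1 model. DESeq2 1.42.0 was an alternative. Replicates are separate mice by their title numbers. On simulated counts the main test recovered 69.5% of 200 genes changed by 1 on the log2 scale among 20701, with 6 false calls. The changed genes were drawn from those above a floor on the mean count. The simulated libraries held no difference by number series or unmapped share, so the false calls do not bear on calls that follow these. Named genes were the 12 largest calls in each direction above a log2 CPM of 1 on average and with an informative symbol, up to 3 calls per list (further nuclear-retained calls were added after their values were seen), otherwise up to 2 members of highest level, and genes named by the study. Some items are not reported here. Members and lists were chosen with earlier results of these data known. Libraries held 20593970 to 68729401 reads on genes.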

Additional observations from a re-analysis of the deposited data

Results flagged for a closer look

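In groups of 6 and 7 libraries, 154 sets of values were examined for 1 library far from the others, and 21 were flagged (13.6%). A rate by chance of about 1 in 20 cannot be set against this share. The sets share libraries and genes, and some have strongly skewed values. SS + RSD mouse 9615 accounted for 11 of these sets. It was highest for the summed choroid plexus and ependymal markers (12700 CPM against 4300 in the next mouse), interferon-stimulated and MHC genes (1370 against 361) and homeostatic microglia genes (1340 against 905). The same mouse was highest for H2-D1 (230 CPM), B2m (257), Ttr (9010), Enpp2 (2740), Tlr2 (5.59), Cx3cr1 (79.5), Csf1r (179) and Ormdl2 (11.1).

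SS mouse 5349 was highest in its group for the choroid plexus markers (3480 CPM against 679), the interferon and MHC genes (435 against 322), Ttr (2290), Enpp2 (843) and B2m (82.0). Among single genes, Kcnh5 was at 10.4 CPM in SS + RSD mouse 5354 against 6.27 in the next, Atf6 was lowest in SS + RSD mouse 9621 at 85.3, Pcsk2 was lowest in SS mouse 9903 at 260, and Cd38 was lowest in SS mouse 9824 at 6.81. Markers of neighbouring brain regions were lowest in SS mouse 9848, at 391 CPM against 491.

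The response to RSD differed between hippocampus and cortex for Gm13532, by -5.96 on the log2 scale in the test of the difference itself, and its reads were in the libraries with the most unmapped reads.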

How the results depend on the processing

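The count of 643 called genes moved with most settings. It was 342 with DESeq2's size factors (RLE) in edgeR, 1489 with DESeq2, 0 without a filter on low counts (5133 at an unadjusted p under 0.05), 1462 with SS and SS + RSD libraries only, 183 without SS + RSD + minocycline mouse 7078, and 4050 at an unadjusted p under 0.05. It was 0 with number series as a term, 0 in series A mice only, 5333 against SS controls of series B only, 0 with AA control libraries and genotype and series as terms, and 0 with the share of reads outside genes as a term (1954 at an unadjusted p under 0.05). Without each library in turn it ran from 0 to 1550, with 0 for 10 of 13. Settings added after the data were seen gave 1609 (share of unmapped reads as a term), 0 (that share and series), 1264 (the 4 libraries over 25% unmapped), 0 (the other 9) and 0 (AA controls without mice 5844 and 9631). The cause was not tested where a setting did not itself remove samples or genes.

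The tissue count of 1 was 5 with DESeq2, 18 without a filter, 0 without mouse as a block, 0 with tissue by number series as a term and 1124 at an unadjusted p under 0.05. The AA series count of 3335 was 2208 without a filter, 6891 at an unadjusted p, 8646 with SS controls added, and 0 to 2578 without each series A library. The 15 called nuclear-retained and splicing genes were 7 with RLE, 18 with DESeq2, 5 without mouse 7078 and 0 with series, or the share outside genes, as a term.

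Of the genes given a defeat estimate in the text, those that changed sign had these log2 values. With number series as a term, Col11a1 was 0.434, Maob -0.0187, Mbp -0.244, Muc3a 0.509, Ormdl2 -0.0096, Ormdl3 -0.0552, Plpp3 -0.0373, Smpd1 -0.123 and Tubb3 -0.0577. In series A mice only, Col11a1 was 0.442, Mbp -0.214, Muc3a 0.532, Ormdl3 -0.0354, Plpp3 -0.0139, Smpd1 -0.0998 and Tubb3 -0.0315. With AA controls, genotype and series, Mbp was -0.0591, Ormdl3 -0.0764, Plpp3 -0.0111 and Smpd1 -0.0147. In that model without mice 5844 and 9631, Ormdl3 was -0.078, Plpp3 -0.0166, Smpd1 -0.0345 and Tubb3 -0.00441. With series and unmapped share as terms, Col11a1 was 0.359, Mbp -0.325, Muc3a 0.00975, Plpp3 -0.0336 and Smpd1 -0.0259. In the 4 libraries over 25% unmapped, Camk2a was -0.0772, H2-D1 -0.226, Nr3c2 -0.211, Sema5a -0.00747 and Ttr -2.47. Against SS controls of series B only, Klf9 was -0.0623. Leaving out 1 library gave H2-D1 values from -0.0822 (without SS + RSD mouse 9615) to 0.904. The other genes given a defeat estimate in the text kept their direction under the settings run.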
